A study of Mus musculus with 6 samples.

Results

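A set of 8 genes of the lens epithelium and of lens progenitor cells was followed by RNA sequencing in the lens transition zone of mouse embryos at E14.5, namely Pax6, Six3, Meis1, Meis2, Tfap2a, Foxe3, Mab21l1 and Mab21l2. They were chosen by gene symbol, and all 8 were found among the 23420 genes of the count table. The mutant group held 3 libraries from embryos with the Le-Cre transgene, no functional Etv4 allele (Etv4-/-) and with Etv5 and Etv1 both floxed (fl/fl). The control group held 3 libraries from embryos with Le-Cre alone, which the titles call wild type. All embryos were of mixed strain background and were frozen in OCT. Le-Cre drives Cre in the lens-forming head ectoderm, under regulatory sequence of the Pax6 gene, so both groups carry that added sequence. Whether any Pax6 count came from the transgene was not tested. The labels do not say whether a library came from 1 embryo or from pooled embryos, so p-values measure only the spread between these libraries.

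In the transition zone, near the lens equator, epithelial cells leave the cell cycle and start to elongate into fibre cells. Pax6 and Six3 act in the head ectoderm that will form the lens, and each supports the expression of the other. Meis1 and Meis2 bind enhancers of Pax6, while Foxe3, Mab21l1 and Tfap2a act in the lens placode, the lens vesicle and later the lens epithelium. Foxe3 keeps epithelial cells dividing and undifferentiated. Etv1, Etv4 and Etv5 form the Pea3 family of ETS factors, whose transcription FGF signalling induces in the lens and elsewhere. The comparison asks which of these genes differ when the Pea3 genes are targeted in the lens.

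Mab21l1 was higher in all 3 mutant libraries and was the only one of the 8 genes that passed the test. Its level was 2.40 times that of control libraries (95% interval 1.96 to 2.94). Pax6, Six3, Foxe3, Meis1, Meis2 and Tfap2a did not pass. Mab21l2 had almost no counts in either group and was not tested in the fit described here. The test was edgeR's quasi-likelihood F test fitted across all 12257 genes that passed a filter on low counts, with Benjamini-Hochberg adjusted p under 0.05 as the threshold. Of all tested genes, 2.22% passed (272 genes), and of the 7 tested members 1 did. No further member had an unadjusted p under 0.05. Values are normalized CPM (CPM being counts per 1e6 counts of the library, with the library size scaled by TMM), which compare libraries for 1 gene.

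Libraries held between 13364742 and 17301168 counts, so that 3 counts stood for between 0.152 and 0.247 normalized CPM. Etv1 had a log2 fold change of -1.11, Etv5 one of -0.93 and Etv4 one of 0.64, with adjusted p-values from edgeR of 0.0319, 0.0503 and 0.427. These counts include exons that a deletion can leave in place. Mutant library 1 had 0.102 normalized CPM of the Y-linked gene Ddx3y, against between 43.0 and 53.8 in the other 5 libraries, so its tissue differed in sex. The lens fibre genes Mip and Cryaa and the epithelial genes Aldh1a1 and Sfrp1 were abundant in every library. Not all such markers were, as the epithelial gene Aqp1 stayed at or under 1.12 and the fibre gene Dnase2b at or under 3.89 normalized CPM. Among 10 retina marker genes, Six6 and Crx were at 0 counts in all 6 libraries and Rax stayed at or under 0.382 normalized CPM. The 10 retina markers summed to between 7.26 and 13.0 normalized CPM in mutant libraries and between 3.51 and 17.8 in control libraries, mostly from Hes5, a Notch target. Markers of pigment epithelium summed to between 3.00 and 6.51 in mutant and between 3.82 and 9.12 in control libraries. Those of periocular mesenchyme summed to between 4.87 and 10 in mutant and between 3.60 and 17.9 in control libraries. Surface ectoderm and cornea markers summed to between 1.98 and 8.39 in mutant and between 0.665 and 2.37 in control libraries, with Krt12 at 0 in all. Endothelium markers summed to between 23.2 and 56.0 in mutant and between 33.0 and 44.7 in control libraries. Most of this came from Tek, with between 22.7 and 53.1 in mutant and between 28.0 and 41.7 in control libraries. No tested gene of these 5 lists or of the 5 macrophage markers passed in edgeR. At an unadjusted edgeR p under 0.05 there were 2 mesenchyme, 2 macrophage and 1 ectoderm or cornea gene. The mesenchyme genes went opposite ways, Col3a1 with a log2 fold change of -3.02 and Twist1 with 3.21. The macrophage genes Csf1r and C1qa and the ectoderm or cornea gene Krt5 were higher in mutant libraries. DESeq2 called 2 mesenchyme genes and limma voom called 1 macrophage gene. Pax6, Six3 and Meis genes are also expressed in retina and Tfap2a in surface ectoderm, and the part of these tissues in the values below was not tested beyond these levels.

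The paralogs Mab21l1 and Mab21l2 encode proteins with a nucleotidyltransferase fold and are not classed as DNA-binding factors. Each has a single exon, and their coding sequences are alike, which bears on whether reads of one could be counted for the other. Over 1077 aligned coding bases without gaps they shared 80.6% of bases and differed at 209. The 120 bases in which they differ least, coding bases 183 to 302, are shown to let the pair be compared. They come from GENCODE M21 on GRCm38, at chr3:55783176-55783295 on the plus strand for Mab21l1 and at chr3:86547390-86547509 on the minus strand for Mab21l2, and capitals mark the 13 bases at which the pair differ.
Mab21l1: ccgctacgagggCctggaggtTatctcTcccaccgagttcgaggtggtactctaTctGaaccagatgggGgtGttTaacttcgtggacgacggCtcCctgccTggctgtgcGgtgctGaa
Mab21l2: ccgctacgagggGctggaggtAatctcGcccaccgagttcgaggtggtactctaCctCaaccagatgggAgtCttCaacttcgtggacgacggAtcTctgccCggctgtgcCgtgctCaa
The longest run of identical bases was 26, and of 2443 stretches of 50 bases in the Mab21l1 transcript 0 occurred in the Mab21l2 transcript. A read of that length would therefore hold at least 1 base that tells the pair apart. The build named in the submitters' processing notes is mm9, and the read length is not given in the sources used here.

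Mab21l1 is needed for the lens placode to grow and invaginate. It had 409.8, 433.5 and 393.9 normalized CPM in mutant libraries 1, 2 and 3, against 158.8, 166.4 and 190.3 in control libraries 1, 2 and 3. The lowest mutant library stood well above the highest control library, and the 3 libraries of each group lay close together. Mutant libraries averaged 412.4 ± 19.9 and control libraries 171.8 ± 16.4 normalized CPM (SD, n = 3 each). This gave a log2 fold change of 1.26 ± 0.13 (SE, with adjusted p = 0.00196 in edgeR). By p-value Mab21l1 ranked 38 among the 12257 tested genes, and by the size of its change 192 among the 272 that passed. The call was kept in each of the 6 fits that left out 1 library, at log2 fold changes between 1.21 and 1.34 and edgeR adjusted p-values between 0.00439 and 0.0284. In the authors' deposited table its log2 fold change was 1.25, with an adjusted p of 1.68e-14. For the other 6 tested members the authors' deposited table gives adjusted p-values between 0.383 and 0.959. In bulk tissue, more cells that express a gene and more RNA per cell cannot be told apart.

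Mab21l1 lies inside Nbea, a neuronal gene on the opposite strand whose annotated exons overlap it in GENCODE M21. The kit does not mark strand, so reads of the pair cannot be told apart by strand where exons overlap. Nbea had 26.3, 40.5 and 28.1 normalized CPM in mutant libraries 1, 2 and 3, against 36.1, 25.6 and 34.2 in control libraries 1, 2 and 3. The groups overlapped, and the log2 fold change of Nbea was -0.02 ± 0.22 (SE, with adjusted p = 0.979 in edgeR). Of 10 tested S phase genes 1 passed as well, Mcm2, a subunit gene of the replicative helicase, and it was higher in mutant libraries. All 10 had log2 fold changes above 0, with a median of 1.13 against 0.0018 over all tested genes. Of these 10 genes 8 had an unadjusted edgeR p under 0.05, as had 1985 of all 12257 tested genes. The Mcm2 call was lost without control library 2, mutant library 1 or mutant library 3 (edgeR adjusted p between 0.0708 and 0.0872), while DESeq2 and limma voom called 3 S phase genes each. The summed level of the 10 genes was 1628, 919 and 1659 normalized CPM in mutant libraries 1, 2 and 3, against 335, 711 and 838 in control libraries 1, 2 and 3. Mutant library 2 had the lowest mutant sum, which still stood above the highest control sum. The summed level of 5 macrophage markers was 21.7, 3.38 and 20.9 in mutant libraries 1, 2 and 3, against 7.55, 2.43 and 1.05 in control libraries 1, 2 and 3. Here the groups overlapped, and mutant library 2 was again the lowest of its group. Whether either summed level bears on that of Mab21l1 was not tested.

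Mab21l2, which is needed for eye development and is strongly expressed in the retina, had 0 counts in each mutant library, against 6, 1 and 6 counts in control libraries 1, 2 and 3. It did not pass the filter on low counts. Summed over libraries this was 0 against 13 counts. The control level was 4.54 times a floor of 3 counts over the mutant group, which covers counting error in the mutant group only. The 13 control counts were taken as exact, so this is no lower bound on the change. Control library 2 alone, at 0.061 normalized CPM, was level with that floor of 0.060. The authors' deposited table gives a log2 fold change of -1.48 ± 0.78 (SE) and no adjusted p. At 0.272 normalized CPM over the control group, Mab21l2 stood far under the levels of the other members. Mab21l2 lies inside Lrba, whose level of 2.66 ± 0.612 in mutant and 3.60 ± 1.78 normalized CPM in control libraries (SD, n = 3 each) did not differ beyond the spread.

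**Figure D1:**
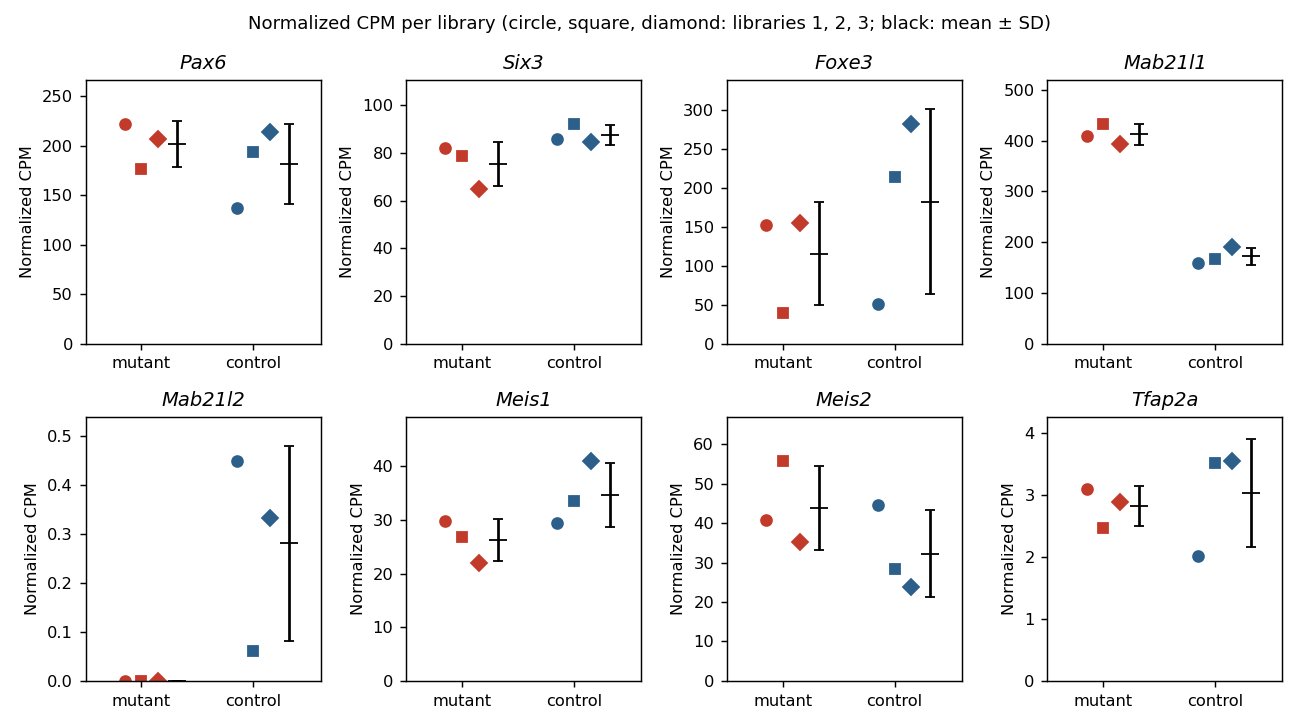
Normalized CPM (y axes, from 0) of the 8 genes in mutant (red) and control (blue) libraries, 1 panel per gene, with circle, square and diamond for libraries 1, 2 and 3 and black bars for the mean ± SD of 3 libraries. Mab21l1 lies between 393.9 and 433.5 in mutant and between 158.8 and 190.3 in control libraries, while Foxe3 spreads widely within both groups.

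Pax6, the paired and homeodomain factor required at every stage of early lens formation, had 222.3, 176.6 and 206.9 normalized CPM in mutant libraries 1, 2 and 3, against 136.9, 193.8 and 213.9 in control libraries 1, 2 and 3. Control library 1 was the lowest of all and the remaining 5 libraries lay within a narrow band. The groups averaged 201.9 ± 23.2 in mutant and 181.5 ± 40.0 in control libraries (SD, n = 3 each). The log2 fold change, 0.15 ± 0.18, missed the threshold (SE, with adjusted p = 0.734 in edgeR), and its 95% interval ran from -0.26 to 0.57. Its sign turned without control library 1, where it was -0.014. The antisense gene Pax6os1, which overlaps Pax6 but shares no exon with it, averaged 1.35 ± 0.203 in mutant and 0.916 ± 0.267 normalized CPM in control libraries (SD, n = 3 each).

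Six3, a homeodomain factor that activates Pax6 in the presumptive lens ectoderm, had 82.2, 78.8 and 65.0 normalized CPM in mutant libraries 1, 2 and 3, against 85.8, 92.3 and 84.4 in control libraries 1, 2 and 3. Each mutant library stood under each control library, by a small margin. Such separation was found for 22.7% of all tested genes and for 2 of the 7 tested members, Six3 and Mab21l1. Six3 had a log2 fold change of -0.22 ± 0.13, which is not a call (SE, with adjusted p = 0.475 in edgeR). Its 95% interval, from -0.52 to 0.09, does not reach a halving of the level, which is -1 on this scale. Six3os1, an opposite-strand transcript whose exons overlap those of Six3, had a similar log2 fold change of -0.30 ± 0.13 (SE, with adjusted p = 0.302 in edgeR). It averaged 66.2 ± 6.39 in mutant and 81.3 ± 3.76 normalized CPM in control libraries (SD, n = 3 each), and without strand the reads of these genes cannot be told apart where they overlap.

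Meis1 and Meis2, homeodomain cofactors of the TALE class, had log2 fold changes of opposite sign, neither past the threshold. Meis1 had 29.8, 26.8 and 22.02 normalized CPM in mutant libraries 1, 2 and 3, against 29.4, 33.7 and 41.0 in control libraries 1, 2 and 3. Its highest mutant library overlapped its lowest control library. Meis1 thus had a mutant over control log2 value of -0.40 ± 0.19 (SE, with adjusted p = 0.347 in edgeR). Meis2 had 40.8, 55.7 and 35.1 normalized CPM in mutant libraries 1, 2 and 3, against 44.6, 28.5 and 23.8 in control libraries 1, 2 and 3. Control library 1 lay among the mutant libraries and the other two control libraries were lower. For Meis2 the log2 value was 0.44 ± 0.27 (SE, with adjusted p = 0.465 in edgeR). The ratio of Meis1 to Meis2 counts, which does not depend on scaling, was 0.732, 0.481 and 0.627 in mutant libraries, against 0.658, 1.18 and 1.72 in control libraries 1, 2 and 3. Its mean log2 difference of -0.87 did not differ beyond the spread (p = 0.2 in an exact two-sided permutation test, where 3 against 3 cannot go under 0.1), and it was -1.24 without control library 1 and -0.54 without control library 3.

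Tfap2a, the AP-2 alpha factor of surface ectoderm and lens epithelium, was low throughout. It had 3.10, 2.47 and 2.89 normalized CPM in mutant libraries 1, 2 and 3, against 2.02, 3.52 and 3.55 in control libraries 1, 2 and 3. These values rest on between 27 and 64 counts per library, and the groups overlapped. The log2 fold change was -0.10 ± 0.40 (SE, with adjusted p = 0.927 in edgeR), with a 95% interval from -1.02 to 0.81. Its sign turned without control library 2 or 3, where it was 0.016 and 0.022. The annotation also has 3 antisense genes whose exons overlap Tfap2a, and they were not analysed here.

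Foxe3, the forkhead factor of the lens epithelium, was the most variable member. It had 152.1, 39.7 and 155.7 normalized CPM in mutant libraries 1, 2 and 3, against 51.2, 214.0 and 282.8 in control libraries 1, 2 and 3. The highest library was 3.92 times the lowest in mutant and 5.52 times the lowest in control libraries, compared with 1.26 and 1.56 times for Pax6. The groups overlapped, and the averages of 115.9 ± 65.9 in mutant and 182.7 ± 119 in control libraries (SD, n = 3 each) did not differ beyond that spread. The log2 fold change, -0.66 ± 0.67, missed the threshold (SE, with adjusted p = 0.676 in edgeR), and its 95% interval from -2.21 to 0.90 holds both a large fall and a moderate rise. It was -1.10 without control library 1, -0.20 without control library 3 and -0.25 without mutant library 2.

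**Figure D2:**
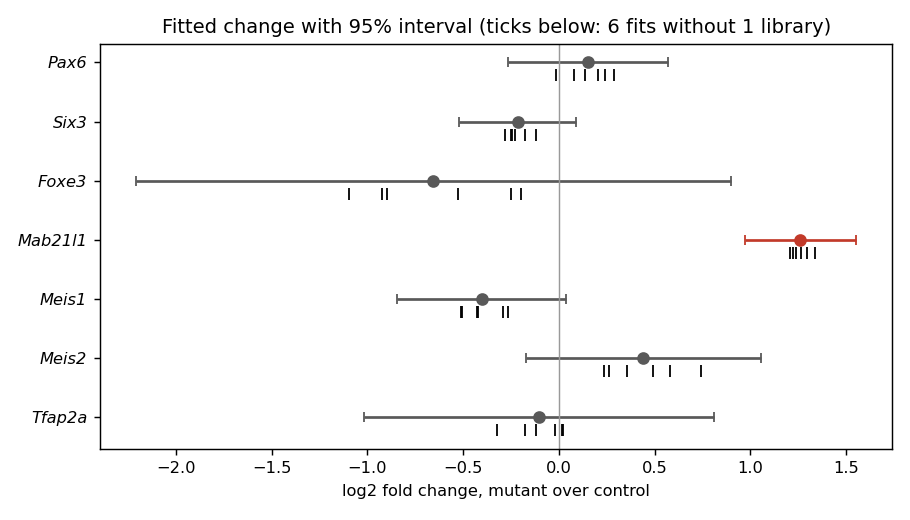
Log2 fold change of mutant over control (x axis) for the 7 tested genes, with 95% intervals from the edgeR fit and, beneath each, ticks for the 6 fits that leave out 1 library. The interval of Mab21l1 (red, 0.97 to 1.56) lies wholly above 0, and that of Foxe3 is the widest, from -2.21 to 0.90.

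The low Foxe3 libraries, mutant library 2 and control library 1, were also those with the largest share of counts from 16 crystallin genes, the structural genes that fibre cells express most. That share was 21.7%, 32.2% and 19.5% in mutant libraries 1, 2 and 3, against 37.6%, 30.2% and 21.8% in control libraries 1, 2 and 3. Pax6, Foxe3 and Tfap2a, 3 of the 7 tested members, were lowest within their group in these same libraries, as were 22% of all tested genes. So were 6 of 10 epithelium markers and 10 of 10 S phase genes. Highest in these libraries were 9 of 11 fibre markers, against 21.5% of all tested genes. The same held for 3 of 10 epithelium markers, Wnt7a, Wnt7b and Sfrp1, and for 1 member, Meis2. The 18 other lens transcription factors were split, with 9 lowest and 6 highest there. This pattern was described after the values were seen. Over the 6 libraries, the log2 level of Pax6 ran against the crystallin share (Pearson r = -0.913, exact permutation p = 0.00694, adjusted over 7 members 0.0486). Its Spearman rho was -0.829 (exact permutation p = 0.0583, adjusted 0.408), and r was -0.964 without the libraries farthest from the median share, control library 1 and mutant library 3. For Foxe3 r was -0.719 and rho -0.486 (exact permutation p = 0.139 and 0.356, adjusted 0.324 and 0.498), and r was -0.648 without those libraries. For Mab21l1 r was -0.453 and rho -0.371 (exact permutation p = 0.324 and 0.497, adjusted 0.378 and 0.580), and r was 0.066 without them. All libraries share their CPM scaling with the crystallin counts, and 3 libraries per group are too few for values within a group.

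With the crystallin share as a covariate, the fit called 3 of the 7 members, where 6.51% of all tested genes passed. The share comes from the counts of these same libraries, and whether it depends on genotype was not tested. A difference in this fit is therefore one given the share, and can be larger or smaller than that between the groups as such. Without the covariate Foxe3 and Meis2 stood at -0.66 and 0.44 and missed the threshold. Mab21l1 kept its log2 fold change at 1.24. Foxe3 was lower in mutant libraries at equal crystallin share, with a log2 fold change of -1.49 ± 0.29 (SE, with adjusted p = 0.0236 in edgeR). That Foxe3 call was lost without mutant library 2 or 3, at edgeR adjusted p-values of 0.192 and 0.138, with log2 fold changes between -1.94 and -1.13 over the 6 fits without 1 library. Meis2 was higher at equal share, with a log2 fold change of 0.76 ± 0.16 (SE, with adjusted p = 0.0172 in edgeR). Leaving out control library 2, control library 3, mutant library 1 or mutant library 2 each ended the Meis2 call, at edgeR adjusted p-values between 0.0504 and 0.110 and log2 fold changes between 0.69 and 0.82 over the 6 fits. Pax6 had a log2 fold change of -0.0059 in this fit.

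**Figure D3:**
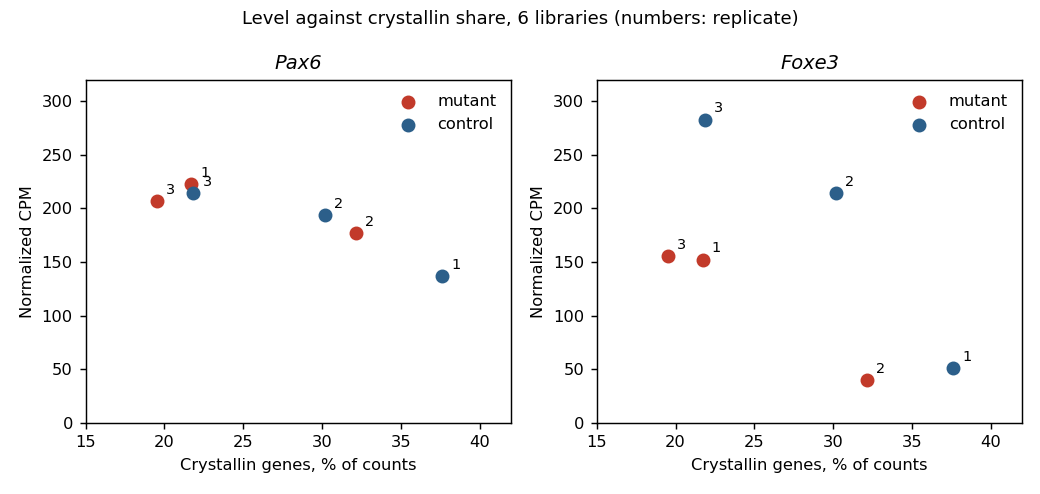
Normalized CPM (y axes) of Pax6 and Foxe3 against the share of counts from crystallin genes (x axes, %) in mutant (red) and control (blue) libraries, numbered by replicate. Foxe3 is lowest in mutant library 2 (39.7) and control library 1 (51.2), and mutant libraries 1 and 3 lie below control library 3 at similar crystallin shares.

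Between genes, levels were compared per kilobase of transcript, as full-length cDNA gives longer transcripts more reads. In mutant libraries Mab21l1 led with 148.5 ± 7.17 normalized CPM per kb, followed by Foxe3 with 71.3 ± 40.6, Pax6 with 45.6 ± 5.25, Six3 with 20.5 ± 2.47, Meis2 with 11.8 ± 2.87, Meis1 with 3.47 ± 0.522 and Tfap2a with 0.809 ± 0.091 (SD, n = 3). In control libraries Foxe3 led with 112.4 ± 73.2, followed by Mab21l1 with 61.9 ± 5.91, Pax6 with 41.0 ± 9.03, Six3 with 23.8 ± 1.14, Meis2 with 8.69 ± 2.94, Meis1 with 4.59 ± 0.780 and Tfap2a with 0.869 ± 0.251 normalized CPM per kb (SD, n = 3). Because Foxe3 varied so much, its place next to Mab21l1 in control libraries and next to Pax6 in both groups lay within the spread, whereas within the mutant group each Mab21l1 value stood above every value of the other members. The lengths come from GRCm38 annotation and not from the authors' mm9 annotation. With the longest principal transcript in place of the longest coding one, Pax6 stood at 63.3 in control libraries, level with Mab21l1, and at 70.4 in mutant libraries, level with Foxe3.

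Some genes had profiles over the 6 libraries nearly the same as those of members, by the root mean square difference of their log2 deviations among 9284 genes with a mean of at least 5 CPM. Nearest to Mab21l1 were Isyna1, which encodes inositol phosphate synthase, at 0.122, and Maml2, a Notch coactivator gene, at 0.137. Isyna1 had 138.5, 148.7 and 154.9 normalized CPM in mutant libraries, against 57.4, 71.7 and 73.8 in control libraries 1, 2 and 3. Isyna1 and Maml2 had log2 fold changes of 1.12 and 1.13, a size that their choice by profile fixes. Nearest to Foxe3 were Stra6, the gene of a retinol uptake receptor, at 0.170, and Jph1, a junctophilin gene, at 0.229. Stra6 had 96.0, 22.5 and 86.5 normalized CPM in mutant libraries 1, 2 and 3, against 31.9, 95 and 148.1 in control libraries 1, 2 and 3, and its likeness to Foxe3 is what chose it. Pax6 had Zfp105 and Ivd at 0.044 and 0.058, Six3 had Rabep1 and Elmod3 at 0.045 and 0.046, and Meis1 had Rab11fip3 and Cep89 at 0.029 and 0.052. Meis2 had Arid3b and Nrip2 at 0.059 and 0.071, and Tfap2a had Zfp629 and Znrd1 at 0.072 and 0.087. Among the members themselves, Pax6 and Tfap2a were nearest, at 0.147, and Six3 and Meis1 next, at 0.182. Genes that vary little lie near each other by this measure whatever their pattern. The root mean square deviation from the gene's own mean was 0.157 for Six3, 0.235 for Pax6, 0.276 for Meis1 and 0.288 for Tfap2a. For Foxe3 it was 1.044. A flat profile would thus lie nearer to Six3 than Meis1 did.

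Paralogs and binding partners of the members were mostly low or did not pass. Of 18 listed genes 9 were tested, 1 rose and 8 did not pass, with a median log2 fold change of 0.40 against 0.0018 over all tested genes. The gene that rose was Meis3, the third Meis gene, with 6.85, 4.04 and 11.0 normalized CPM in mutant libraries 1, 2 and 3, against 1.94, 1.64 and 1.16 in control libraries 1, 2 and 3. Meis3 had a log2 fold change of 2.21 ± 0.45 (SE, with adjusted p = 0.0476 in edgeR). Its call was lost in each fit without 1 library other than the one without mutant library 2, at log2 fold changes between 1.79 and 2.39 and edgeR adjusted p-values between 0.0760 and 0.202. Tgif1 and Pbx2, TALE homeodomain genes like the Meis genes, had log2 values of mutant over control of 0.53 ± 0.14 and 0.63 ± 0.23 which missed the threshold (SE, with adjusted p = 0.102 and 0.217 in edgeR). Pax2, Pax3, Foxe1, Six6 and Tfap2e were at 0 counts in all 6 libraries.

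Among other lens transcription factors most log2 fold changes were below 0. Of 18 tested genes 1 fell and 17 did not pass, 4 had positive log2 fold changes, and the median was -0.23. Gata3, a factor of early fibre cells, was the gene that fell, with a log2 fold change of -1.23 ± 0.17 (SE, with adjusted p = 0.00894 in edgeR). Its call was lost without control library 2 or mutant library 3, at edgeR adjusted p-values of 0.0580 and 0.0595. Eya1, a coactivator that pairs with Six-family proteins, had 32.2, 24.7 and 26.4 normalized CPM in mutant libraries 1, 2 and 3, against 65.0, 45.3 and 47.0 in control libraries 1, 2 and 3. Its log2 fold change, -0.91 ± 0.19, missed the threshold (SE, with adjusted p = 0.0520 in edgeR). Sox2, a partner of Pax6 in early lens, averaged 2.10 ± 1.596 in mutant and 8.12 ± 1.08 normalized CPM in control libraries (SD, n = 3 each), with a log2 fold change of -1.92 ± 0.54 that did not pass (SE, with adjusted p = 0.124 in edgeR). Pitx3, a homeodomain factor of the lens, was at nearly the same level in both groups, with a log2 fold change of 0.0036 ± 0.12 (SE).

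Epithelium markers that are not transcription factors gave 1 fall and 9 genes that did not pass among 10 tested, with a median log2 fold change of -0.46. Of all tested genes 2.22% passed. The gene that fell was the Wnt ligand gene Wnt7a, with 2.84, 6.18 and 1.96 normalized CPM in mutant libraries 1, 2 and 3, against 98.2, 52.2 and 38.0 in control libraries 1, 2 and 3. Its call was lost without mutant library 1 (log2 fold change -3.98, edgeR adjusted p = 0.0587). Wnt7b and Aldh1a1, which encodes a retinal dehydrogenase, were lower in mutant libraries without overlap between groups, as were 11.3% of all tested genes. Their log2 values of mutant over control, -0.63 ± 0.18 and -0.64 ± 0.18, missed the threshold (SE, with adjusted p = 0.133 and 0.131 in edgeR). Genes known to lie downstream of Pax6, Six3, Foxe3 or Tfap2a gave 1 fall and 8 that did not pass among 9 tested, with a median of -0.43. Most of these genes are also counted among the epithelium markers, the other lens transcription factors or the fibre markers, so these medians share genes. The fall was that of Cdkn1c, a cell cycle inhibitor gene that Foxe3 holds down, with a log2 fold change of -1.17 ± 0.17 (SE, with adjusted p = 0.0121 in edgeR), and it was lost without control library 2 or mutant library 1 (edgeR adjusted p = 0.0708 and 0.0841). The Wnt inhibitor gene Sfrp2 had 80.4, 16.3 and 63.9 normalized CPM in mutant libraries 1, 2 and 3, against 45.9, 216.9 and 274.0 in control libraries 1, 2 and 3, low in the same libraries as Foxe3. Cdh1, the E-cadherin gene that AP-2 factors activate, averaged 112.6 ± 36.7 in mutant and 139.9 ± 98.6 normalized CPM in control libraries (SD, n = 3 each). Among fibre markers, 2 of 11 tested genes fell, Bfsp2 and Grifin, and 9 did not pass, with all 11 log2 fold changes below 0 and a median of -0.79. The Grifin call was lost without control library 2, mutant library 1 or mutant library 3 (edgeR adjusted p between 0.0614 and 0.0816), whereas 4 fibre markers were called without mutant library 2 and by DESeq2, and 5 by limma voom.

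**Figure D4:**
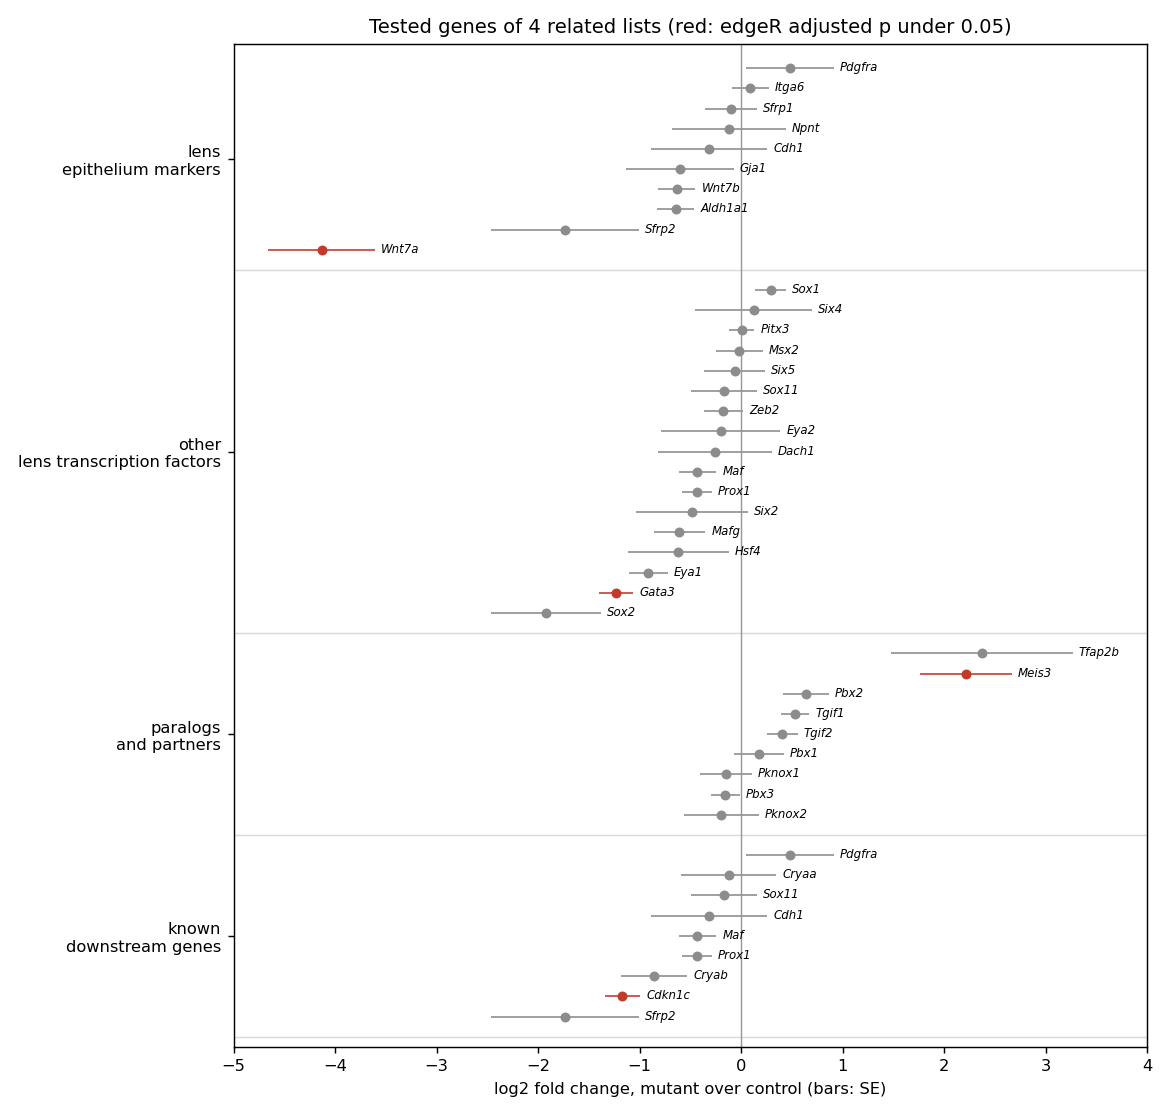
Log2 fold change of mutant over control (x axis) with SE bars for tested genes of 4 lists, each gene on its own line, red where the edgeR adjusted p was under 0.05. Meis3 passed above 0, and Wnt7a, Gata3 and Cdkn1c passed below 0.

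The promoters of the members were searched for CCGGAAGT, a high-affinity binding sequence of ETS factors, on both strands. RefSeq windows of 250 bases before to 50 bases after a start site, on GRCm38.p6, were at hand for 7 of the 8 members, and Mab21l1 had none. Of 9 windows for these genes 1 held the sequence, that of Meis1, against 3.89% of all 32851 windows. It is shown because it holds the only match, at chr11:19018920-19019219 on the minus strand, with the match in capitals in its reverse complement form, 13 bases before the start site.
Meis1: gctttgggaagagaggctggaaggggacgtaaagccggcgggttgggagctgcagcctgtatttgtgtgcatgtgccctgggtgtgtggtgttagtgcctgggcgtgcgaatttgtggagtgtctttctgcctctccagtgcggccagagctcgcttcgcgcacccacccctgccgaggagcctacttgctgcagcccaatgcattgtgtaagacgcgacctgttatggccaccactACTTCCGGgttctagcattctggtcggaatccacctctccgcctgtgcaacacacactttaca
Meis1 itself, as given above, did not pass the test. A match is not a shown binding site, and the lack of one says only that these letters do not occur in the window.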

How the data were processed

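RNA from the lens transition zone was amplified with the SMART-seq v4 ultra-low input kit and made into Nextera XT libraries, per the labels' protocols. Per the submitters' processing notes the tools were TopHat, Cufflinks, DESeq and bcl2fastq 1.8.4, in no stated role, and the build was mm9. Read counter, annotation and strand setting: not given in the sources used here. Raw counts per gene symbol are what the authors deposited, and the series table and the library files differ in 0 values. The authors' deposited comparison holds a mean normalized signal, log2 fold changes, a standard error and a test statistic (score), p-values and adjusted p-values. Only its values for the members were used, and a positive one means higher in the mutant.

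Counts were analysed here in R 4.3.3 with edgeR 4.0.16. Low genes were removed with filterByExpr (10 counts minimum, 15 in total), libraries were scaled by TMM, and the groups were compared in a robust quasi-likelihood fit with no covariate. Benjamini-Hochberg adjustment ran across the 12257 genes left. Standard errors and 95% intervals derive from the F statistic and its degrees of freedom. Members and 12 gene lists (120 entries) were chosen with earlier results of these data known. From each list the text names the genes past the threshold or else those of lowest p, and any further list gene was chosen after its values were seen. The 2 genes of nearest profile are named per member. Some list genes are counted in their lists but not reported here by name or drawn. The fit was tested on simulated data. No libraries were copies, since their chi-square divided by its degrees of freedom lay between 29.7 and 146.4 within groups. Counts come from PCR-amplified cDNA without molecular identifiers, so floors cover counting error only. Alternatives were DESeq2 1.42.0 (test and size factors), limma 3.58.1 voom, TMM without crystallin genes, other filters, the replicate number as a block, the crystallin share as a covariate and leaving out single libraries.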

Additional observations from a re-analysis of the deposited data

How the results depend on the processing

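Mab21l1 stayed past the threshold in every alternative in which its value was read. In the fits with the crystallin share as a covariate and 1 library left out, only Foxe3 and Meis2 were read. The number of members past the threshold was 3 with the crystallin share as a covariate, where Foxe3 (log2 fold change -1.49) and Meis2 (0.76) passed and Pax6 turned to -0.0059. With that covariate and 1 library left out, an alternative added after seeing the data, Foxe3 lay between -1.94 and -1.13, passing at -1.54 without control library 1, -1.13 without control library 2, -1.94 without control library 3 and -1.58 without mutant library 1. Meis2 lay between 0.69 and 0.82, passing at 0.79 without control library 1 and 0.77 without mutant library 3. Without a covariate, leaving out 1 library gave log2 fold changes between -0.014 and 0.29 for Pax6 and between -0.32 and 0.022 for Tfap2a. Over the genome, 140 genes were higher and 132 lower, against 367 and 431 with the covariate, 391 and 420 by DESeq2's own test and 392 and 416 by limma voom. Leaving out 1 library gave between 54 and 213 higher and between 36 and 266 lower genes. The number of called genes was 1 each for epithelium markers, other lens transcription factors, paralogs and partners, downstream genes and S phase genes and 2 for fibre markers. With the covariate these numbers were 4, 4, 2, 3, 3 and 5, by DESeq2 3, 4, 2, 1, 3 and 4, and by limma voom 3, 4, 2, 1, 3 and 5. The causes were not tested. Replicate numbers did not pair the libraries: same-numbered mutant and control libraries correlated at -0.284, -0.147 and 0.219 in their deviations from group means. With the replicate block 68 genes were higher and 54 lower, Mab21l1 remained called (log2 fold change 1.27) and the calls of Meis3, Cdkn1c, Mcm2 and Grifin were lost (edgeR adjusted p = 0.138, 0.0883, 0.0688 and 0.0757). A ratio of Mab21l1 to Mab21l2 counts was not run because Mab21l2 had 0 counts in all mutant libraries. Tfap2a did not pass the filter of 5 CPM and has no value there. Mab21l2 was left out of the main fit by its filter on low counts. With no filter, and by DESeq2's own test, 8 members were tested and 1 passed, Mab21l1.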
